A study of Mus musculus with 9 samples.

Results

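Interferon-stimulated genes were followed across 3 sorted populations of the mouse small intestinal epithelium. The members were the 39 gene symbols of a list of interferon-stimulated genes, chosen with earlier results of these data known. All 39 were found among the 35013 symbols of each of the 2 deposited tables of normalized counts. Every library came from primary small intestinal epithelial cells of Neurog3Cre-FoxO1 f/f; Rosa26tdtomato mice aged 4 to 6 weeks, called NFKO, and was made from polyadenylated RNA. In these mice Cre is driven by Neurog3, a transcription factor of endocrine progenitors, so that FoxO1 is deleted and the red tdTomato reporter is switched on in cells that expressed Neurog3 and in their descendants. The 3 populations were CD24negTomato+ cells, CD24+Tomato+ cells and Tomatoneg cells, with 3 replicates each and 9 libraries in all, CD24 being a surface antigen used to divide the Tomato+ cells. The first table set CD24negTomato+ beside Tomatoneg cells, and the other set CD24+Tomato+ cells beside those Tomatoneg libraries. All 3 groups came from mice of the same genotype, so each comparison sets Neurog3-derived, FoxO1-deleted cells beside other epithelial cells, and the deletion and the cell lineage cannot be told apart. The labels call the replicates biological. They do not say whether libraries of the same replicate number came from the same mice, nor whether mice were pooled. The p-values therefore measure the spread between these libraries, and how far that is a spread between single mice is not given.

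Interferons are secreted proteins that cells make after sensing foreign or misplaced nucleic acids. Type I interferons act on the IFNAR1 and IFNAR2 receptor chains, type III interferons on IFNLR1 with IL10RB, the pair that epithelial cells of the gut are known to rely on, and interferon gamma, the type II interferon, on IFNGR1 and IFNGR2. Type I and III receptors activate a complex that holds STAT2 and IRF9 and binds the interferon-stimulated response element, while the interferon gamma receptor acts through the gamma-activated sequence. The genes switched on in this way include sensors of viral RNA and DNA, proteins that block viral replication, and the immunoproteasome and peptide transporter that feed antigen presentation.

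RefSeq promoters on GRCm38.p6, each running from 250 bases before to 50 bases after a gene's start, were matched for 31 of the 39 members. The core letters GAAANNGAAA, searched on both strands, stood in the window of 14 of these 31 genes, or 45.2%, against 3.99% of the 27025 genes of the promoter table. The core of the gamma-activated sequence, TTCNNNGAA, which reads the same on both strands and does not contain the other core, stood in 22.6% of the members and 9.55% of all genes of the promoter table. These are matches of letters and were not measured as binding. The 250 bases before the start are printed below for the 5 members with the largest change of the 11 that held the GAAANNGAAA core there, to show where the core lay in genes whose values are given further on. Capitals mark the core, which reads TTTCNNTTTC where it lies on the opposite strand, and each run is written 5′ to 3′ on the gene's own strand.
Cxcl10, chr5:92348890-92349139, minus strand: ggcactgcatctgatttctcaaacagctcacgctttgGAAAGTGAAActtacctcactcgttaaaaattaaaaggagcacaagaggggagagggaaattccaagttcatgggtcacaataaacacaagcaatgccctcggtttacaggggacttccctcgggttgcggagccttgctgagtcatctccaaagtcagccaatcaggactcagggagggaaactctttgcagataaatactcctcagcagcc
Ifit3, chr19:34583279-34583528, plus strand: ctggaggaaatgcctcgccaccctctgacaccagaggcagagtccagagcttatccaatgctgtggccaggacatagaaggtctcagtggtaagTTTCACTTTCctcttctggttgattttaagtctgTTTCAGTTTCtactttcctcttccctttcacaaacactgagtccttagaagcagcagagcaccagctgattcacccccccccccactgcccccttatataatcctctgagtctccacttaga
Gbp2, chr3:142620413-142620662, plus strand: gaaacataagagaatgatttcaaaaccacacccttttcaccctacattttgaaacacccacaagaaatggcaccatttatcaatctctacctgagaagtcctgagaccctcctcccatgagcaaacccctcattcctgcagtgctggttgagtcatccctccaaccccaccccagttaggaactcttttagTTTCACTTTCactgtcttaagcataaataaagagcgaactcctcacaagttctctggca
Tmem140, chr6:34862896-34863145, plus strand: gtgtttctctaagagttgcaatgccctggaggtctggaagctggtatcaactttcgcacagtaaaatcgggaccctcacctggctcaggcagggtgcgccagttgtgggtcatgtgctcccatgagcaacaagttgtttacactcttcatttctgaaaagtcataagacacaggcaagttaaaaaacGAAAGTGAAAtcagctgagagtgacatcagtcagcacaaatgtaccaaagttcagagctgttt
Ifit1, chr19:34640639-34640888, plus strand: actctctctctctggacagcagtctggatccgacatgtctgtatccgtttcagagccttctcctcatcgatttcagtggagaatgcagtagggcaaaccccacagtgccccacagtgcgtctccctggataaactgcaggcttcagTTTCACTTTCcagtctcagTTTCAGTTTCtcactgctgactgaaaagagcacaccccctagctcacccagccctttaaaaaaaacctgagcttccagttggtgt
The core began 213 bases before the start of Cxcl10, 59 bases before Gbp2 and 63 bases before Tmem140. Ifit3 and Ifit1, neighbours on chromosome 19, each held 2 copies, which began 156 and 122 bases before the start of Ifit3 and 104 and 85 bases before that of Ifit1. None of these matches says whether the element was in use.

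With the most frequent low value of a library taken as 1 read, estimated depth was 19200000 to 39200000 reads per library. On that estimate 3 reads corresponded to 2.1 to 4.29 normalized counts, the range over all libraries. The estimate is rough, since the values are not whole counts, and every mention of 3 reads below rests on it. Cd24a, the gene of the sort antigen, was 2.78 higher on the log2 scale in CD24+Tomato+ than in Tomatoneg cells (SE 0.28, limma adjusted p = 0.003). Its log2 fold change in CD24negTomato+ cells was -1.37 (SE 0.36), which passed with the block only (adjusted p = 0.115, and 0.0133 with the block). Neurog3, the gene whose promoter drives Cre, was at 14.6, 19.6 and 41.2 normalized counts in CD24negTomato+ against 80.2, 123.4 and 147 in Tomatoneg cells (log2 -2.26, SE 0.62, adjusted p = 0.126, and 0.0673 with the block). Its values were 1319, 1345 and 1364 in CD24+Tomato+ against 102, 149 and 182 in Tomatoneg cells of that table (log2 3.25, SE 0.31, adjusted p = 0.00231). The transcript of the Cre driver was thus below its Tomatoneg values in every CD24negTomato+ library and above them in every CD24+Tomato+ library. Foxo1, the deleted gene, was at 467, 274 and 371 normalized counts in CD24negTomato+ against 696, 518 and 424 in Tomatoneg cells, and at 319, 193 and 201 in CD24+Tomato+ against 748, 529 and 444 in Tomatoneg cells of that table. Foxo1 was therefore lower in every Tomato+ library than in the Tomatoneg library of its number, but its adjusted p was 0.427 for CD24negTomato+ and 0.0579 for CD24+Tomato+ cells, and reads outside the deleted part of the gene would still be counted. In limma with the replicate number as a block, described next, Foxo1 passed for CD24+Tomato+ cells (adjusted p = 0.022) and not for CD24negTomato+ cells (0.207). These are bulk libraries, in which fewer cells of a type and less RNA per cell cannot be told apart.

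The members leaned in opposite directions in the Tomato+ populations. Relative to Tomatoneg cells, 35 of 39 members had a positive log2 fold change in CD24negTomato+ cells, with a median of 0.81 against 0.08 over the 13420 genes tested, whereas 27 of the 38 members tested in CD24+Tomato+ cells had a negative one, with a median of -0.57 against 0.16 over 13874 genes. The members ranged from -0.49 to 2.72 in CD24negTomato+ cells and from -2.21 to 1.90 in CD24+Tomato+ cells. Genes were tested where their mean over the 6 libraries of the table was at least 10 normalized counts, and Cxcl10 fell under that mean in the CD24+Tomato+ table. The comparisons share their Tomatoneg libraries and the tables were normalized separately, so the difference between the Tomato+ populations was not tested.

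Few single members passed the test. In limma on log2(normalized count + 1), 0 of 39 members reached an adjusted p under 0.05 in CD24negTomato+ cells in either direction, where 0.999% of all genes tested were called higher and 0.32% lower. Without adjustment, 11 members were higher and 0 lower at a limma p under 0.05, against 10.3% and 6.82% of all genes. In CD24+Tomato+ cells 2 of 38 members were higher and 8 lower without adjustment, against 16.3% and 11.5% of all genes. Among CD24+Tomato+ cells Wars was called higher and Parp9 and Ifi35 were called lower, which is 2.63% and 5.26% of the members against 8.02% and 4.89% of all genes, so these shares stood near or below the background. With the replicate number as a block, so that each Tomato+ library is set against the Tomatoneg library of the same number, 11 members (28.2%) were called higher in CD24negTomato+ cells and 0 lower, against 4.34% and 2.96% of all genes. With the block in CD24+Tomato+ cells, 2 members (5.26%) were called higher and 13 (34.2%) lower, against 10.8% and 9.95% of all genes. The members called with the block were above the background share in CD24negTomato+ cells for higher values and in CD24+Tomato+ cells for lower values. Since the list was chosen with earlier results of these data known, these shares are a description and no independent evidence.

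**Figure D1:**
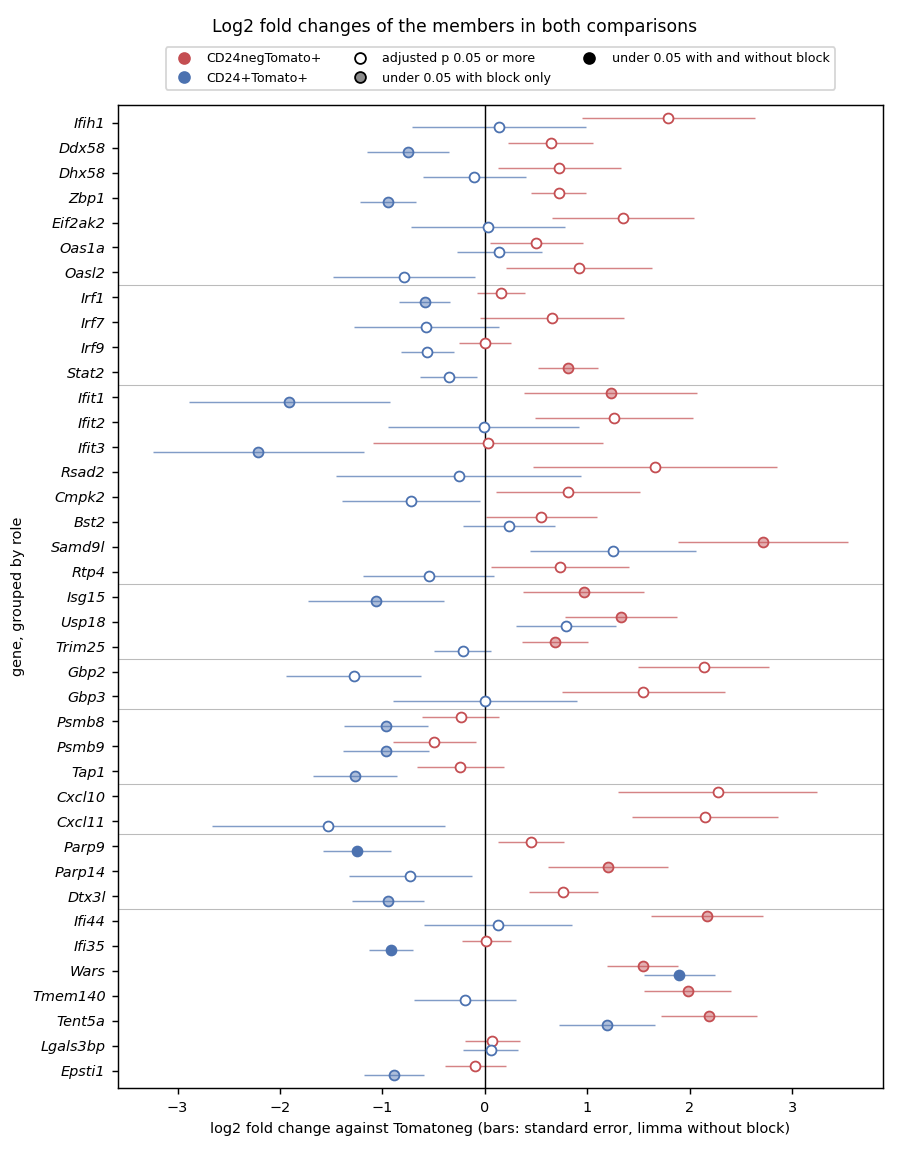
Log2 fold changes against Tomatoneg cells for the 39 members, grouped by role, with CD24negTomato+ in red and CD24+Tomato+ in blue; bars are standard errors from limma without the block, and filling marks which calls passed with and without it. Red points lie right of 0 for 35 of 39 members and blue points lie left of 0 for 27 of 38, while the points filled in full are Wars, Parp9 and Ifi35 in CD24+Tomato+ cells.

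Taken pair by pair, 28 of 39 members (71.8%) were higher in all 3 CD24negTomato+ libraries than in the Tomatoneg library of the same number, against 28.7% of all genes, and 3 members (7.69%) were lower in all 3, against 23.6%. For the CD24+Tomato+ pairs, 20 of 38 members (52.6%) were lower in all 3 pairs, against 24.1% of all genes, and 4 (10.5%) were higher in all 3, against 34.3%. Of the 38 members tested in both tables, 23 were higher in CD24negTomato+ and lower in CD24+Tomato+ cells, 11 were higher in both, 4 were lower in both, and 0 showed the reverse pattern. The share of all genes with each of these joint patterns was not counted, so these numbers have no background beside them. Under equal library totals, which lower the median of all genes in CD24negTomato+ cells from 0.08 to -0.12, the number of members higher there was 30 of 39 with a median of 0.61. Quantile normalization gave 32 of 39 in CD24negTomato+ cells with a median of 0.73, beside -0.05 for all genes, and 29 of 38 lower in CD24+Tomato+ cells with a median of -0.74, beside -0.02 for all genes.

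Of the fits that left out 1 library, the one without Tomatoneg replicate 1 moved the median in CD24+Tomato+ cells most. Without Tomatoneg replicate 1 the median of the members in CD24+Tomato+ cells was -0.01, with 18 members higher and 20 lower, beside -0.57 with all libraries. That fit kept CD24+Tomato+ replicate 1, so replicate 1 stood on the Tomato+ side alone. In CD24negTomato+ cells the same omission raised the median from 0.81 to 1.39 and brought 6 of 39 members past the threshold, all higher. These were Gbp2, Cxcl11, Ifi44, Wars, Tmem140 and Tent5a. Calls rose over all 13420 genes as well, from 134 to 535 higher and from 43 to 381 lower. The CD24negTomato+ fit likewise kept replicate 1 of the Tomato+ cells. Without CD24negTomato+ replicate 1 the median there was 0.51, and without Tomatoneg replicate 3 it was 0.52. With both replicate 1 libraries left out, the medians were 0.93 in CD24negTomato+ and -0.28 in CD24+Tomato+ cells. With both left out and without the block, 0 members and 0 genes passed in CD24negTomato+ cells.

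**Figure D2:**
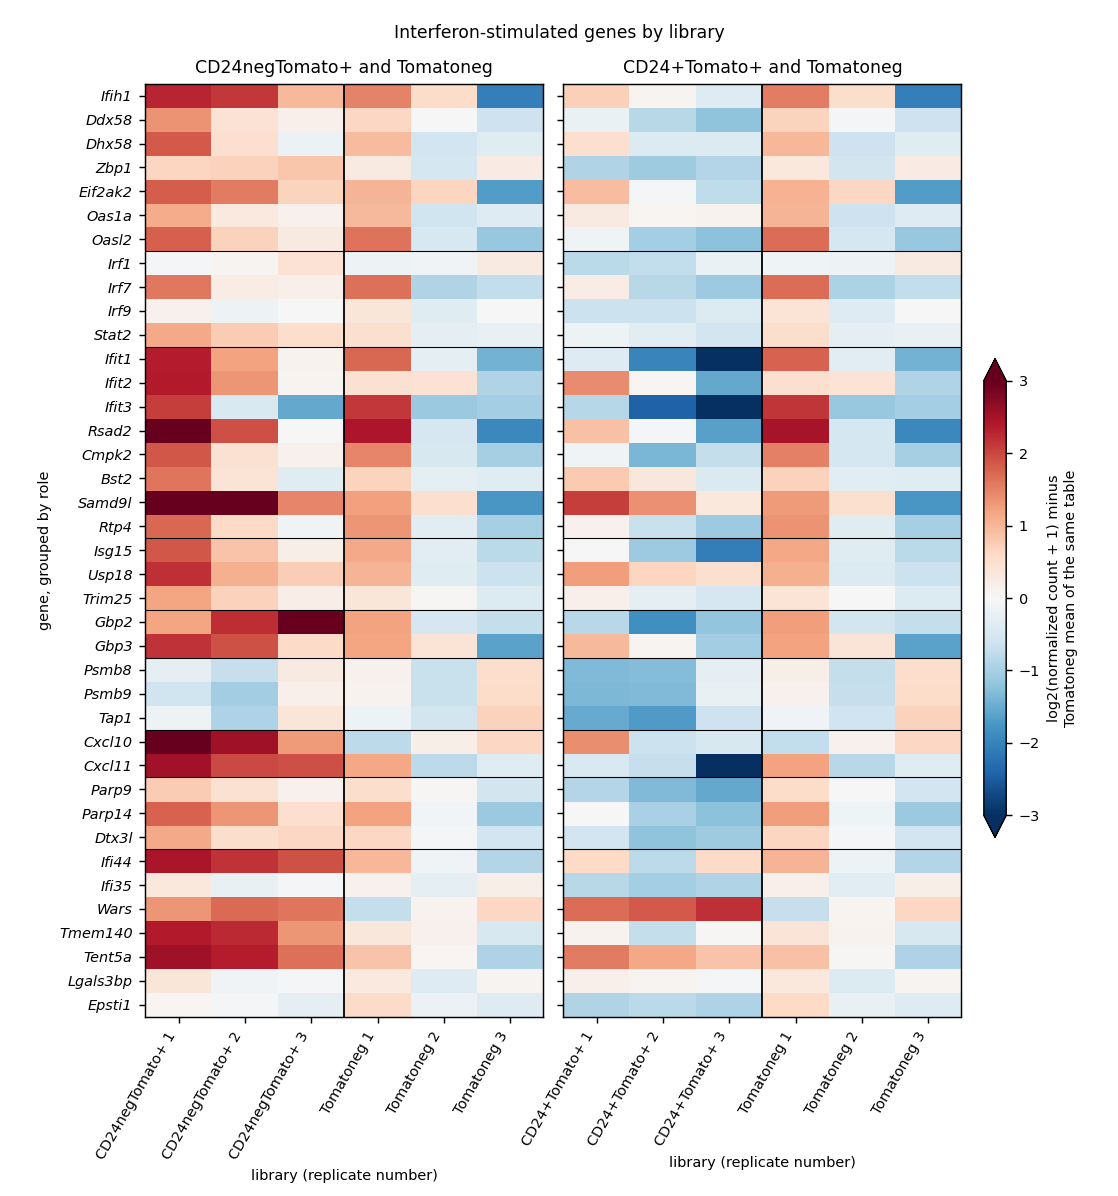
Normalized counts of the 39 members in each library, as log2(normalized count + 1) minus the Tomatoneg mean of the same table, with CD24negTomato+ and Tomatoneg libraries on the left and CD24+Tomato+ and Tomatoneg libraries on the right. Replicate 1 is the reddest column within most groups, and Psmb8, Psmb9 and Tap1 are instead highest in replicate 3.

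The nucleic acid sensors were higher in all 3 CD24negTomato+ pairs without exception, and none of the 7 passed the test in either table without the block. Their log2 fold changes in CD24negTomato+ cells ran from 0.50 for Oas1a, which makes the 2-5A signal that activates RNase L, to 1.79 for Ifih1, which encodes the long double-stranded RNA sensor MDA5. Ifih1 was at 2620, 2351 and 1057 normalized counts in CD24negTomato+ cells and at 1518, 792 and 130 in Tomatoneg cells, so the groups overlapped through Tomatoneg replicate 1. Eif2ak2, the kinase PKR that stops translation, was at 1936, 1622 and 877 against 1111, 865 and 172 and had the next largest difference (log2 1.35, SE 0.69, limma adjusted p = 0.363). The sensors of CD24+Tomato+ cells ranged from -0.95 to 0.14.

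Zbp1, a sensor of Z-form nucleic acids that triggers necroptosis, was the sensor whose groups did not overlap in either table. Its normalized counts were 3495, 3607 and 4002 in CD24negTomato+ against 2724, 1567 and 2639.6 in Tomatoneg cells, and 1265, 1115 and 1276 in CD24+Tomato+ against 2925, 1598 and 2761 in Tomatoneg cells of that table. The CD24negTomato+ libraries were all above and the CD24+Tomato+ libraries all below their Tomatoneg libraries. The log2 fold change of Zbp1 in CD24+Tomato+ cells was -0.95 (SE 0.27, limma adjusted p = 0.0637, and 0.0168 with the block). Ddx58, the gene of RIG-I, read 1035, 670.1 and 519 normalized counts in CD24+Tomato+ and 1902, 1159 and 777 in Tomatoneg cells, and its log2 fold change of -0.75 (SE 0.40) also passed with the block only (adjusted p = 0.0337). Dhx58, which encodes LGP2, a regulator of both RNA sensors, and Oasl2, a relative of the 2-5A synthetases, had log2 fold changes of 0.73 and 0.92 in CD24negTomato+ cells and -0.10 and -0.79 in CD24+Tomato+ cells. Oas1a shares 68.8% of its 31-base words with other genes, nearly all with Oas1g, so its estimate is uncertain.

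The transcription factors that switch the program on had a median log2 fold change of 0.41 in CD24negTomato+ and -0.57 in CD24+Tomato+ cells, and none of the 4 passed the test without the block. Stat2, the partner of IRF9, was at 3212, 2492 and 2103 normalized counts in CD24negTomato+ cells and at 2049, 1219 and 1241 in Tomatoneg cells, so all CD24negTomato+ libraries lay above all Tomatoneg libraries. The log2 fold change of Stat2, 0.81 (SE 0.29), had a limma adjusted p of 0.213, and 0.0384 with the block. Irf7, which amplifies type I interferon production, was at 9809, 3816 and 3647 normalized counts in CD24negTomato+, 10199.7, 1740.2 and 1963 in Tomatoneg and 4004, 1920.2 and 1609 in CD24+Tomato+ cells. Replicate 1 was the highest Irf7 library of every population, and the log2 fold changes of Irf7, 0.66 (SE 0.71) and -0.57 (SE 0.71), lay within 1 standard error of 0.

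Irf1, a factor strongly induced by interferon gamma, was instead highest in replicate 3. It was at 5536, 6076 and 7776 normalized counts in CD24negTomato+ and 5132, 5295 and 6943 in Tomatoneg cells, and at 3523, 3715 and 5414 in CD24+Tomato+ against 5709, 5596 and 7523 in Tomatoneg cells of that table. The CD24+Tomato+ libraries were all below the Tomatoneg libraries for Irf1, with a log2 fold change of -0.59 (SE 0.25, limma adjusted p = 0.172, and 0.0271 with the block). Irf9, the DNA-binding subunit of the STAT complex, also had CD24+Tomato+ values, 912, 911 and 1073, all below its Tomatoneg values of 1884, 1080.4 and 1405 (log2 -0.56, SE 0.26, adjusted p = 0.21). In CD24negTomato+ cells Irf1 (log2 0.16) and Irf9 (log2 0.00) were close to 0, and both turned negative under equal library totals.

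The IFIT genes and other antiviral effectors had median log2 fold changes of 1.02 and -0.40 and varied widely between replicates. Ifit1, whose product binds viral RNA that lacks cap methylation, was at 2696, 1222 and 569 normalized counts in CD24negTomato+ cells and at 1748, 425 and 195 in Tomatoneg cells. It was at 421, 140.1 and 52.3 in CD24+Tomato+ cells against 1882, 435 and 204 in Tomatoneg cells of that table. Each population spanned more than the difference between populations, replicate 1 being the highest in all 3, yet in every pair Ifit1 was higher in CD24negTomato+ and lower in CD24+Tomato+ than in Tomatoneg cells. The log2 fold changes were 1.23 (SE 0.84, limma adjusted p = 0.487) and -1.91 (SE 0.98, adjusted p = 0.256), and both passed with the block, at adjusted p = 0.0434 and 0.00853.

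Ifit3, its neighbour, was lower in all 3 CD24+Tomato+ pairs and without a direction in CD24negTomato+ cells. Its values were 167, 55.3 and 28.9 in CD24+Tomato+ against 1351, 136 and 150.0 normalized counts in Tomatoneg cells, the largest difference of any member in that table (log2 -2.21, SE 1.03, limma adjusted p = 0.212, and 0.0264 with the block). In CD24negTomato+ cells Ifit3 read 1219, 210.4 and 98.8 against 1254, 133 and 143 (log2 0.03, SE 1.12), and the sign turned under equal library totals and quantile normalization. Ifit3 shares 61.8% of its 31-base words with Ifit3b, and Ifit1 10.5% with related genes, so their split by the authors' counting is uncertain. Ifit2, a further family member, was low, at 34.2 to 173 normalized counts in CD24negTomato+ and 17 to 44.9 in Tomatoneg cells.

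Samd9l, a translation inhibitor and growth regulator, had the largest log2 fold change of all members in CD24negTomato+ cells. It was at 1915, 2275 and 569 normalized counts in CD24negTomato+ against 486, 292 and 60.1 in Tomatoneg cells, 6.58-fold higher on the log2(count + 1) scale, and the groups did not overlap. The log2 fold change was 2.72 (SE 0.83, limma adjusted p = 0.155, and 0.0107 with the block). Samd9l in CD24+Tomato+ cells was at 905, 557 and 269 against 523, 299 and 63.1, higher in all 3 pairs but short of the threshold (log2 1.25, SE 0.81, adjusted p = 0.368, and 0.0527 with the block).

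Rsad2, which encodes viperin, and Cmpk2, the nucleotide kinase gene beside it, had positive log2 fold changes of 1.66 (SE 1.19) and 0.81 (SE 0.70) in CD24negTomato+ cells, neither past the threshold with or without the block. Rsad2 ranged from 73.7 to 629.7 normalized counts in CD24negTomato+ cells and from 18.9 to 406 in Tomatoneg cells, a wider range between replicates than between populations. Bst2, the virus tether tetherin, and Rtp4, an effector that binds viral replication complexes, had log2 fold changes of 0.55 and 0.73 in CD24negTomato+ and 0.24 and -0.55 in CD24+Tomato+ cells. Rtp4 shares 12.5% of its 31-base words with an overlapping gene model.

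The ISG15 pathway was the role group in which every member passed with the block in CD24negTomato+ cells. ISG15 is a ubiquitin-like modifier, USP18 removes it and dampens type I signalling, and TRIM25 is a ligase for ubiquitin and ISG15 that activates RIG-I. Isg15 was at 2390.2, 1183 and 737 normalized counts in CD24negTomato+ and 1431, 522 and 373 in Tomatoneg cells (log2 0.97, SE 0.59, limma adjusted p = 0.438, and 0.0388 with the block). Usp18 was at 1555, 711 and 562 against 687, 263 and 215 (log2 1.33, SE 0.55, adjusted p = 0.271, and 0.0254 with the block). Trim25 was at 6000.2, 4283 and 3047 against 3432, 2717 and 2014 (log2 0.69, SE 0.32, adjusted p = 0.324, and 0.0392 with the block). All 3 genes were higher in every pair while their groups overlapped, and Isg15 shares 12.8% of its 31-base words with other genes.

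The ISG15 pathway split in CD24+Tomato+ cells. Isg15 was at 680, 323 and 161 normalized counts against 1547, 536 and 393, lower in all 3 pairs (log2 -1.06, SE 0.67, limma adjusted p = 0.35, and 0.0301 with the block). Usp18 was at 838, 552 and 494 against 735, 267 and 224, higher in all 3 pairs without passing (log2 0.79, SE 0.49, adjusted p = 0.346, and 0.102 with the block). Trim25 differed by -0.22 (SE 0.28).

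**Figure D3:**
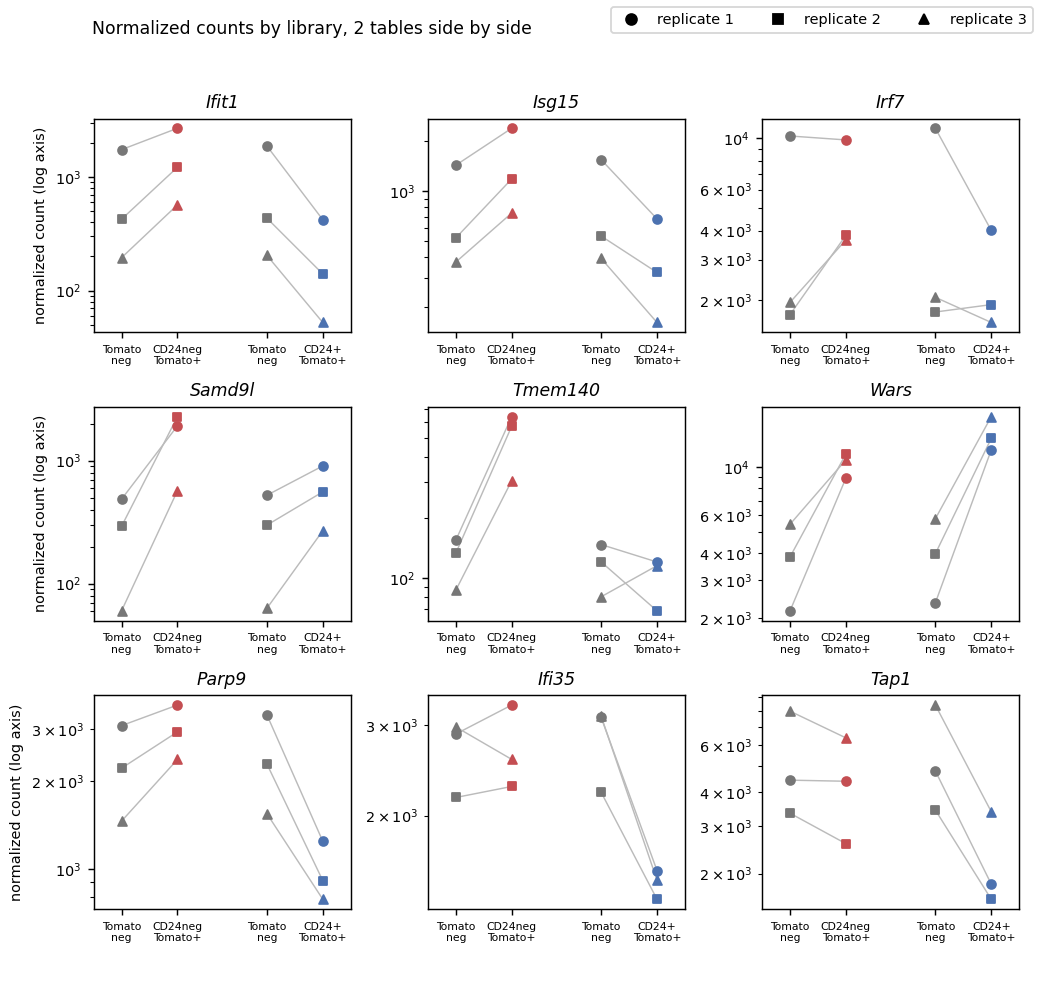
Normalized counts of 9 members by library on log axes, with CD24negTomato+ and Tomatoneg libraries of the first table on the left of each panel and CD24+Tomato+ and Tomatoneg libraries of the other table on the right; symbols give the replicate number and grey lines join libraries of the same number. For Ifit1 and Isg15 all 3 lines climb on the left and drop on the right, for Wars all 6 climb, and for Parp9 and Ifi35 all 3 on the right drop.

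The guanylate-binding proteins, GTPases that attack the membranes around intracellular pathogens, had a median log2 fold change of 1.84 in CD24negTomato+ cells, uneven between pairs. Gbp2 was at 372, 764 and 1332 normalized counts in CD24negTomato+ cells and at 380.3, 115 and 100.2 in Tomatoneg cells. It was thus nearly equal in replicate 1 and several-fold higher in the other pairs, with replicate 3 the highest CD24negTomato+ library, the reverse of most members (log2 2.14, SE 0.64, limma adjusted p = 0.151, and 0.114 with the block). Gbp2 in CD24+Tomato+ cells was at 96.4, 47.7 and 75.3 against 410, 118 and 105, all below Tomatoneg (log2 -1.28, SE 0.66, adjusted p = 0.257). Gbp3 had log2 fold changes of 1.55 (SE 0.79) and 0.00 (SE 0.90), and it turned negative in CD24+Tomato+ cells under quantile normalization.

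The antigen-processing genes were the members that were lower in all 3 pairs of both Tomato+ populations. PSMB8 and PSMB9 are catalytic subunits of the immunoproteasome, and TAP1 is a chain of the transporter that carries peptides to MHC class I. The 3 genes lie together in the MHC region of chromosome 17 on GRCm38, Psmb9 at chr17:34181987-34187764 and Tap1 at chr17:34187553-34197225 on opposite strands, with annotated exons that overlap, and Psmb8 at chr17:34197721-34201454. Whether reads were counted by strand is not given in the sources used here, so reads from the stretch shared by Psmb9 and Tap1 cannot be assigned to one of them with certainty.

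Tap1 was at 1827, 1605 and 3390.3 normalized counts in CD24+Tomato+ and 4801, 3439 and 8428 in Tomatoneg cells, 2.41-fold lower without overlap (log2 -1.27, SE 0.41, limma adjusted p = 0.0857, and 0.00182 with the block). Psmb8 was at 2236, 2266 and 4618 against 6324, 3419.9 and 8084 (log2 -0.97, SE 0.41, adjusted p = 0.174, and 0.0184 with the block). Psmb9 was at 1026, 1056 and 2252 against 2892, 1622 and 3867 (log2 -0.96, SE 0.42, adjusted p = 0.187, and 0.0213 with the block). In all 3 genes replicate 3 was the highest library of each population, and all 3 were lower in every pair.

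In CD24negTomato+ cells the antigen-processing genes were slightly lower in every pair, in contrast to most other members. Tap1 was at 4397, 2580.2 and 6367 normalized counts against 4438, 3346 and 7999, Psmb8 had a log2 fold change of -0.24 (SE 0.37) and Psmb9 one of -0.49 (SE 0.41, limma adjusted p = 0.563, and 0.1 with the block). Psmb8 and Tap1 turned slightly positive when Tomatoneg replicate 3 was left out.

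The chemokine genes Cxcl10 and Cxcl11, whose products draw CXCR3-bearing T cells, were low in every library. Cxcl10 was at 42.4, 30.4 and 12.1 normalized counts in CD24negTomato+ cells and at 2.12, 5.06 and 7.34 in Tomatoneg cells, the lowest of which is no more than 3 reads. Cxcl11, annotated as a polymorphic pseudogene, was at 105, 72.3 and 70.2 against 40.4, 9.66 and 13.3. Both were without overlap between the groups in CD24negTomato+ cells (log2 2.27, SE 0.97, limma adjusted p = 0.29, and log2 2.15, SE 0.72, adjusted p = 0.189), but neither passed with the block either. In CD24+Tomato+ cells Cxcl10 was at 12.3, 2.22 and 2.63, and Cxcl11 at 14.2, 12 and 0.935, and in CD24+Tomato+ replicate 3 both were below the level of 3 reads.

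Parp9 was 1 of the 2 members called lower in CD24+Tomato+ cells. PARP9 is a member of the PARP family that works with the ubiquitin ligase DTX3L to strengthen transcription of interferon-stimulated genes. Parp9, at chr16:35938470-35972605, was at 1244, 912 and 787 normalized counts in CD24+Tomato+ and 3367, 2287 and 1546 in Tomatoneg cells, 2.37-fold lower with no overlap. It fell by 1.24 on the log2 scale (SE 0.33, limma adjusted p = 0.0491, and 0.00435 with the block). The adjusted p without the block ran from 0.0318 to 0.19 over the alternatives and stayed under 0.05 in only 1 of the 6 fits that left out 1 library, the one without Tomatoneg replicate 3. It was 0.0822, 0.19 and 0.172 without CD24+Tomato+ replicates 1, 2 and 3, and 0.0652 and 0.107 without Tomatoneg replicates 1 and 2.

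Dtx3l, the partner gene, starts 681 bases from the start of Parp9 on the opposite strand, and their annotated exons overlap. It was at 1317, 843 and 932 normalized counts in CD24+Tomato+ against 3066, 1860.1 and 1302 in Tomatoneg cells (log2 -0.95, SE 0.35, limma adjusted p = 0.126, and 0.0209 with the block). Parp14, a related ADP-ribosyltransferase on the same stretch of chromosome 16, had a log2 fold change of -0.73 (SE 0.60). All 3 genes were lower in every CD24+Tomato+ pair.

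In CD24negTomato+ cells the same 3 genes were higher in every pair. Parp14 was at 5279, 3876 and 2195 normalized counts against 3570.0, 1455 and 710.4 (log2 1.20, SE 0.59, limma adjusted p = 0.342, and 0.0392 with the block). Parp9 was at 3636, 2943 and 2368 against 3091, 2210.2 and 1457 (log2 0.45, SE 0.32), and Dtx3l at 4114, 2704 and 2863 against 2851, 1821 and 1243 (log2 0.77, SE 0.34). Neither of these last genes passed, with or without the block.

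Wars was the only member called higher in CD24+Tomato+ cells. It encodes the cytosolic tryptophanyl-tRNA synthetase, an enzyme of protein synthesis that interferon gamma induces, and lies at chr12:108860030-108894174 on the minus strand. Wars was at 12053, 13634 and 17191 normalized counts in CD24+Tomato+ and 2359, 3984 and 5785 in Tomatoneg cells, 3.73-fold higher with every CD24+Tomato+ library above every Tomatoneg library. It rose by 1.90 on the log2 scale (SE 0.35, limma adjusted p = 0.0163). Without CD24+Tomato+ replicate 2 the adjusted p was 0.0883 and without CD24+Tomato+ replicate 3 it was 0.0757. In CD24negTomato+ cells Wars was at 8931, 11554 and 10856 against 2166, 3852 and 5455 (log2 1.54, SE 0.35, adjusted p = 0.08, and 0.0196 with the block). Its order over replicates was unlike that of the antiviral members, with replicate 1 the lowest library of each population.

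Ifi35, whose product pairs with the interferon-induced protein NMI, was the other member called lower in CD24+Tomato+ cells. At chr11:101448407-101458698, it was at 1563, 1374 and 1497 normalized counts in CD24+Tomato+ against 3112, 2222 and 3129.7 in Tomatoneg cells, 1.89-fold lower with no overlap. It fell by 0.92 on the log2 scale (SE 0.21, limma adjusted p = 0.0334). The adjusted p was 0.0919, 0.172 and 0.116 when CD24+Tomato+ replicate 1, 2 or 3 was left out, and 0.0715 without Tomatoneg replicate 3. In CD24negTomato+ cells Ifi35 differed by 0.02 (SE 0.24), with overlapping values.

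Tmem140, Ifi44 and Tent5a stood well apart in CD24negTomato+ cells. Normalized counts of Tmem140, a membrane protein gene, were 639, 572 and 306 against 154, 133 and 86.8 (log2 1.98, SE 0.42, limma adjusted p = 0.0706, and 0.0218 with the block). Tent5a, a poly(A) polymerase gene, was at 2381, 2063 and 1284 against 732, 425 and 214 (log2 2.19, SE 0.47, adjusted p = 0.071, and 0.009 with the block). Ifi44, a microtubule-associated antiviral gene, was at 352, 290.5 and 242 against 128, 59.3 and 34.4 (log2 2.17, SE 0.55, adjusted p = 0.102, and 0.0402 with the block). For each of these genes the lowest CD24negTomato+ library was above the highest Tomatoneg library.

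These 3 genes parted in CD24+Tomato+ cells. Tent5a was at 1255, 951 and 771 normalized counts against 787, 434 and 224, higher in all 3 pairs (log2 1.19, SE 0.47, limma adjusted p = 0.144, and 0.0251 with the block). By contrast Tmem140, at 120.1, 68.5 and 115 against 147, 120.3 and 80.5, and Ifi44, at 96.7, 37 and 96.5 against 132, 57.8 and 34.3, overlapped their Tomatoneg values and had log2 fold changes of -0.19 and 0.13. Epsti1, a gene named for its induction in breast epithelium by stroma, was at 785, 833 and 771 against 2232, 1258 and 1129, all below Tomatoneg (log2 -0.88, SE 0.29, adjusted p = 0.0963, and 0.0449 with the block). Lgals3bp, a secreted galectin-binding glycoprotein, was close to its Tomatoneg level in both tables (log2 0.07, SE 0.27, and 0.06, SE 0.26).

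The member genes whose groups did not overlap numbered 9 of 39 (23.1%) higher in CD24negTomato+ cells, against 14.7% of all genes tested, and 0 lower, against 10.6%. Of the CD24+Tomato+ values, 1 of 38 (2.63%), Wars, was higher without overlap, against 21.6% of all genes, and 8 (21.1%) were lower, against 14.4%. The 9 were Zbp1, Stat2, Samd9l, Cxcl10, Cxcl11, Ifi44, Wars, Tmem140 and Tent5a, and the 8 were Zbp1, Irf1, Irf9, Gbp2, Tap1, Parp9, Ifi35 and Epsti1.

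The members also varied together between replicates, in every population. Of the 38 members tested in both tables, 27 (71.1%) had their highest value in replicate 1 of all 3 populations, against 15.2% of the 13239 genes tested in both tables. Another 4 (10.5%, against 15.8%), which were Irf1, Psmb8, Psmb9 and Tap1, were highest in replicate 3 of all 3, and 0 in replicate 2 (against 5.03%). The median member exceeded the mean of the other replicates in replicate 1 by 0.71 on the log2 scale in CD24negTomato+, 0.68 in CD24+Tomato+ and 1.35 in Tomatoneg cells, where the median gene differed by -0.03, 0.08 and -0.09. These shares describe 9 libraries and carry no test.

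The excess differed by role. For the IFIT and antiviral effector genes it was 1.63, 1.47 and 2.10 in CD24negTomato+, CD24+Tomato+ and Tomatoneg cells, while the antigen-processing genes had medians of -0.10, -0.53 and 0.15. The antigen-processing genes were higher in replicate 3 by 0.92, 1.04 and 0.84. The median range between the lowest and the highest replicate was 1.20, 1.06 and 1.54 on the log2 scale for members and 0.65, 0.59 and 1.13 for all genes. The labels number the libraries of replicates 1, 2 and 3 alike and do not single out replicate 1. Beside the population, the replicate number is the only grouping they give.

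Marker genes of some cell types also differed between replicate 1 and the other replicates, in either direction. The summed Paneth cell markers were lowest in replicate 1 of every population. Over replicates 1, 2 and 3 they were at 19343, 48119 and 51297 normalized counts in CD24negTomato+ cells. The Paneth sums were 516799, 2326435 and 1935615 in CD24+Tomato+ cells and 41464, 158884 and 164602 in Tomatoneg cells of the first table. The summed normalized counts of 10 enterocyte markers were 916635 in CD24negTomato+ replicate 1 and 405083 and 485223 in the other CD24negTomato+ replicates, and 1109310.3, 322813 and 355488 in the Tomatoneg libraries. In CD24negTomato+ cells 8 of the 10 enterocyte markers were higher than in Tomatoneg cells and 2 lower. None was called in limma (1 higher at an unadjusted p under 0.05), and 1 was called higher with the block. For CD24+Tomato+ cells the enterocyte sum was 173218, 66161.9 and 60404, with all 10 markers lower than in Tomatoneg cells and 7 of them called. Pair by pair, the enterocyte sum of CD24negTomato+ cells was below that of Tomatoneg cells in replicate 1 and above it in replicates 2 and 3. The sum of CD24+Tomato+ cells was below it in all 3 pairs. The part of enterocyte content in the members' values was not tested.

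**Figure D4:**
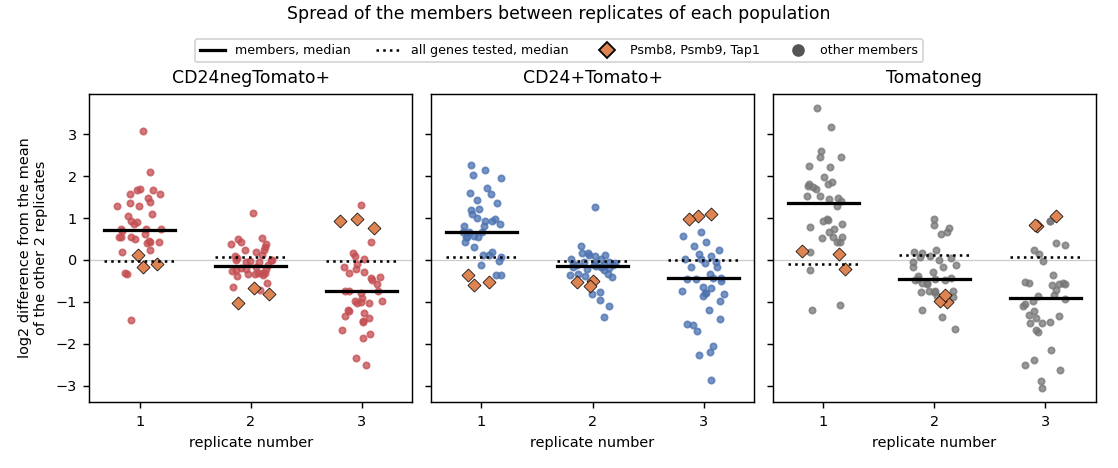
Difference of each replicate from the mean of the other 2 replicates of its population, on the log2 scale, for the 38 members tested in both tables; solid lines are the members' medians, dotted lines the medians of the 13239 genes tested in both tables, and diamonds are Psmb8, Psmb9 and Tap1. The members' median lies at 0.71, 0.68 and 1.35 in replicate 1 of the 3 populations while the median gene stays near 0, and the diamonds lie above 0 in replicate 3.

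The interferon genes themselves were almost silent in these libraries. Of the 10 ligand genes looked for, none had a mean of at least 10 normalized counts, 6 were listed at 0 in all libraries of the CD24negTomato+ table and 7 in all of the CD24+Tomato+ table. Ifnl2 and Ifnl3, the mouse type III interferons, were the exception in 1 library, with 28.3 and 21.7 normalized counts in CD24negTomato+ replicate 1 and 0 in the other libraries of that table, and they are near-identical copies whose reads are hard to divide. Ifnb1 was at 2.83 in that same library, which is no more than 3 reads. All 10 ligands of the CD24+Tomato+ table were at or under 3 reads in every library.

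The receptors and signalling genes had mostly negative log2 fold changes in CD24+Tomato+ cells and values nearer to 0 in CD24negTomato+ cells. Of 25 receptor, kinase, STAT, inhibitor and upstream genes tested, 17 had a positive and 8 a negative log2 fold change in CD24negTomato+ cells, with a median of 0.13 and 0 called in limma (1 at an unadjusted p under 0.05), and Tlr3, the endosomal sensor of double-stranded RNA, passed with the block only (log2 1.62, SE 0.44, limma adjusted p = 0.122, and 0.0232 with the block). In CD24+Tomato+ cells 21 of the 25 were negative, with a median of -0.36, and Ifngr2 and Ticam1 were called lower, which is 8% of the 25 against 4.89% of all genes. With the block Ifngr1 and Mavs were called lower too, which makes 16% against 9.95% of all genes, and these shares rest on 2 and 4 genes.

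Ifngr2, a chain of the interferon gamma receptor, fell by 1.43 on the log2 scale in CD24+Tomato+ cells (SE 0.33, limma adjusted p = 0.0325), from 5908, 2404 and 3830.5 in Tomatoneg cells to 1442, 1259 and 1545. Ticam1, the adaptor of TLR3, fell by 1.01 (SE 0.26, adjusted p = 0.0461).

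The receptor chains of type I and III interferon did not pass in either table. Ifnlr1, the specific chain of the type III receptor, was at 224, 144 and 125 normalized counts in CD24+Tomato+ and 664, 277 and 258 in Tomatoneg cells (log2 -1.18, SE 0.49, limma adjusted p = 0.165, and 0.0572 with the block), and differed by 0.34 (SE 0.44) in CD24negTomato+ cells. Ifnar1 and Ifnar2, the type I receptor chains, had log2 fold changes of 0.00 and 0.01 in CD24negTomato+ cells and -0.53 (SE 0.30) and 0.09 (SE 0.32) in CD24+Tomato+ cells. Il10rb, the shared chain of the type III receptor, differed by 0.27 (SE 0.22) and -0.56 (SE 0.21, adjusted p = 0.139).

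**Figure D5:**
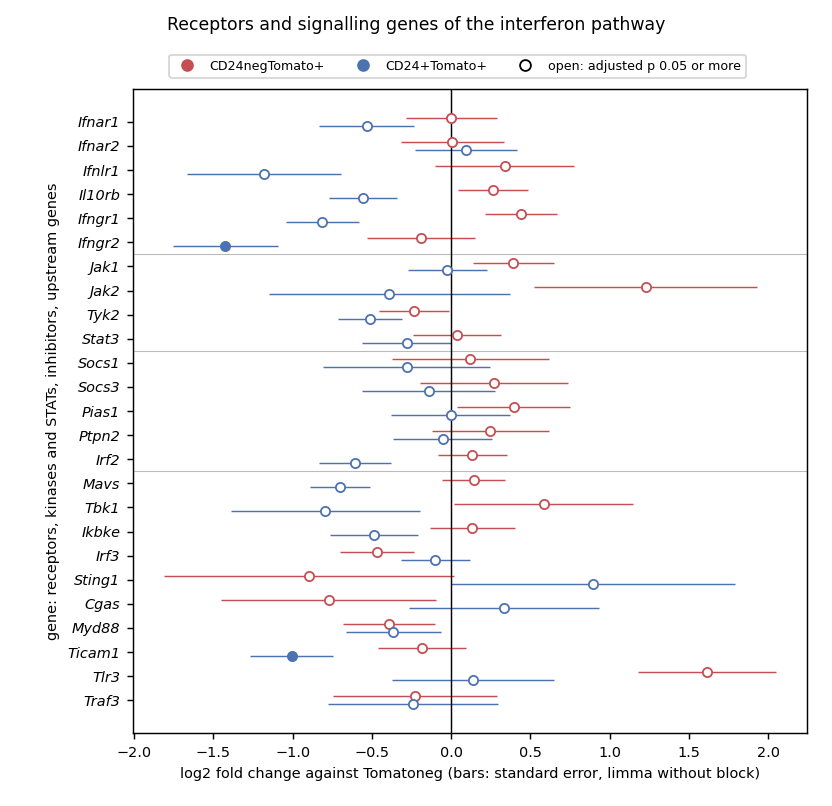
Log2 fold changes against Tomatoneg cells for 25 receptors, kinases and STATs, inhibitors and upstream genes of the interferon pathway, with CD24negTomato+ in red, CD24+Tomato+ in blue, standard errors from limma without the block as bars, and filled points for an adjusted p under 0.05. Blue points lie left of 0 for 21 of 25 genes, with Ifngr2 and Ticam1 filled, and no red point is filled.

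Interferon-stimulated genes outside the member list leaned the same way as the members in each table, though this list too was chosen with earlier results of these data known. Of 40 such genes, 39 were tested in CD24negTomato+ cells, 29 of them positive with a median of 0.42 and 0 called in limma. Before adjustment, 4 of the 39 had a limma p under 0.05 with higher values and 2 with lower ones. Among all genes tested in CD24negTomato+ cells, 10.3% and 6.82% did so, and the counts of 4 and 2 were no larger than these shares. With the block, Oas2, Oas3 and Gbp7 were called higher and Ifitm2 lower there, which is 7.69% and 2.56% of the 39 against 4.34% and 2.96% of all genes. In CD24+Tomato+ cells 32 of 40 were negative, with a median of -0.63, and Igtp, B2m and Slfn2 were called lower and Isg20 higher, which is 7.5% and 2.5% of the 40 against 4.89% and 8.02% of all genes. The block gave 9 lower (22.5%) and 3 higher (7.5%), against 9.95% and 10.8% of all genes, so that the share called higher was below the background in both fits.

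Slfn2, a Schlafen gene known for its role in T cell quiescence, fell by 2.04 on the log2 scale in CD24+Tomato+ cells (SE 0.22, limma adjusted p = 0.00384), with 302, 293 and 303 normalized counts against 1288, 1177 and 1234. B2m, the light chain of MHC class I, fell by 1.26 (SE 0.30, adjusted p = 0.0349), and Igtp, an immunity-related GTPase, by 1.55 (SE 0.40, adjusted p = 0.0436). Isg20, an RNA exonuclease, rose by 2.27 (SE 0.59, adjusted p = 0.0459), with 380.2, 544 and 232 against 150, 63.4 and 43.4. The groups of each of these 4 genes did not overlap in CD24+Tomato+ cells.

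Lymphocyte markers were at lower levels in both Tomato+ populations than in Tomatoneg cells. The summed normalized counts of 12 intraepithelial T lymphocyte markers ranged from 687 to 1550 in CD24negTomato+ and from 3140 to 12249 in Tomatoneg cells, with all 12 lower and 2 called. In CD24+Tomato+ cells the sum ranged from 509 to 628 against 3366 to 12520, with all 12 lower and 9 called, and no T lymphocyte marker was at or under 3 reads in every library. B and plasma cell markers were lower for 7 of 7 tested genes in CD24negTomato+ cells and 6 of 8 in CD24+Tomato+ cells, and macrophage and dendritic cell markers for 4 of 9 and 4 of 8. Epithelial markers were abundant in every library, from 260556 to 450797 normalized counts in sum over both tables.

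The Tomato+ populations also differed in epithelial cell types. All 9 goblet cell markers were called higher in both Tomato+ populations, and 8 of 12 enteroendocrine markers in CD24negTomato+ and 12 of 12 in CD24+Tomato+ cells. Another 2 of the 12 enteroendocrine markers were lower in CD24negTomato+ cells, with 0 called lower in limma and 2 with the block. The 9 Paneth cell markers had negative log2 fold changes in CD24negTomato+ cells, with 0 called in limma (7 at an unadjusted p under 0.05), and were all called higher in CD24+Tomato+ cells, and of the tuft cell markers 6 of 6 tested were lower in CD24negTomato+ and 8 of 8 higher in CD24+Tomato+ cells. The 8 stem cell markers were lower for 7 in CD24negTomato+ cells, with 1 called, and higher for 6 in CD24+Tomato+ cells, with 0 called in limma (1 at an unadjusted p under 0.05). With the block, 6 T lymphocyte, 6 Paneth, 6 tuft and 4 stem cell markers were called lower in CD24negTomato+ cells, against 2.96% of all genes. In CD24+Tomato+ cells the block gave 10 T lymphocyte markers lower and 2 stem cell markers higher, against 9.95% and 10.8% of all genes. The part of lymphocytes and of these epithelial cell types in the members' values was not tested.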

How the data were processed

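RNA-Seq of sorted CD24negTomato+, CD24+Tomato+ and Tomatoneg cells was analysed from 2 tables of 35013 gene symbols, each with 6 libraries. The deposited values are a signal that the authors made with bcl2fastq 2.19, kallisto 0.44.0 (GRCm38) and DESeq2, per the submitters' processing notes, as estimated reads per gene after normalization within a table. They are not whole counts, since only 24.2% to 46% of low values lay within 0.01 of a whole multiple of 1 read, so limma 3.58.1 (R 4.3.3) replaced a count test. Tables were not joined: the ratio of the same Tomatoneg library between them varied by gene, with 5th and 95th percentiles of 1.01 and 1.16 in replicate 1.

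Genes with a mean of at least 10 in a table were fitted as log2(value + 1) with lmFit and eBayes with trend, two-sided, with Benjamini-Hochberg adjustment over all genes tested and a threshold of 0.05. Fold changes are on that log2 scale and understate changes of low genes. Same-numbered libraries deviated together from their group means (correlations of 0.3, 0.29 and 0.34, and 0.28, 0.18 and 0.38). Results blocked on replicate number are therefore given for the members and other named genes where the block changed a call. Counts of cell type markers are without the block unless the block is named. The numbers come from the labels. The scripts were tested on simulated data. Alternatives were other pseudocounts, filters, scalings and left-out libraries.

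The members and gene lists were chosen with earlier results of these data known. All members are named. Other genes were named if past the threshold, up to 5 per list and comparison by size of change, beside the receptors and the label checks Foxo1, Cd24a and Neurog3. 1 gene of the pathway list is not reported here. Promoters came from RefSeq (GRCm38.p6), positions and 31-base words from GENCODE annotation of GRCm38, with Python 3.11.15. No promoter entry was used for 8 members.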

Additional observations from a re-analysis of the deposited data

Results flagged for a closer look

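The direction of 12 members differed between the Tomato+ populations, each being higher in every CD24negTomato+ library and lower in every CD24+Tomato+ library than in the Tomatoneg library of the same number. The difference itself was not tested, since the tables were normalized separately and share the Tomatoneg libraries. How many of all genes show this pattern was not counted, so whether 12 members are unusual is not known. Among the sensors, the log2 fold changes in CD24negTomato+ and CD24+Tomato+ cells were 0.64 and -0.75 for Ddx58, 0.72 and -0.95 for Zbp1 and 0.92 and -0.79 for Oasl2. For the factors, the log2 fold changes in CD24negTomato+ and CD24+Tomato+ cells were 0.16 and -0.59 for Irf1 and 0.81 and -0.35 for Stat2. For the effectors, the log2 fold changes in CD24negTomato+ and CD24+Tomato+ cells were 1.23 and -1.91 for Ifit1 and 0.73 and -0.55 for Rtp4. In the ISG15 pathway, the log2 fold changes in CD24negTomato+ and CD24+Tomato+ cells were 0.97 and -1.06 for Isg15 and 0.69 and -0.22 for Trim25. In the PARP9 group, the log2 fold changes in CD24negTomato+ and CD24+Tomato+ cells were 0.45 and -1.24 for Parp9, 1.20 and -0.73 for Parp14 and 0.77 and -0.95 for Dtx3l. Without Tomatoneg replicate 1, Oasl2 and Rtp4 had log2 fold changes of 0.04 and 0.13 in CD24+Tomato+ cells, in a fit that kept CD24+Tomato+ replicate 1. In the pairs of replicates 2 and 3 both genes were still lower, by -0.50 and -0.08 for Oasl2 and -0.31 and -0.09 for Rtp4. Of the 12 genes, Irf1 turned to -0.04 in CD24negTomato+ cells under equal library totals.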

How the results depend on the processing

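Depth limited the low chemokine and ligand genes. DESeq2 and edgeR were not run, because whole reads were not recovered. The alternatives built on replicates 2 and 3 alone, or on another scaling with the block, were chosen after seeing the data. Where a count moved, the cause was not tested. Medians of the members kept their sign in every alternative, from 0.51 to 1.39 in CD24negTomato+ and from -0.82 to -0.01 in CD24+Tomato+ cells, the last value without Tomatoneg replicate 1.

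With the replicate block, which pairs libraries by number, the calls were 582 genes higher and 397 lower (members 11 and 0) in CD24negTomato+ cells, and 1504 higher and 1381 lower (members 2 and 13) in CD24+Tomato+ cells, beside 134 and 43 (members 0 and 0) and 1113 and 678 (members 1 and 2) without it, and 12 members in CD24+Tomato+ and 11 in CD24negTomato+ cells passed only with it. Equal library totals with the replicate block gave 477 and 822 (members 8 and 1), and 1156 lower in CD24+Tomato+ cells (members 2 and 11). Quantile normalization with the replicate block gave 856 and 783 (members 13 higher), and 1725 and 1931 (members 3 and 14). Replicates 2 and 3 alone with the replicate block gave 1092 and 853 (members 18 higher), and 1755 and 1535 (members 5 and 9), and without the block 0 and 0 in CD24negTomato+ cells, where 2703 genes had an unadjusted p under 0.05 in limma, and 1 member lower in CD24+Tomato+ cells.

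Quantile normalization without the block gave 304 and 190 (members 3 higher) in CD24negTomato+ cells and, in CD24+Tomato+ cells, 991 and 1036, with 2 members higher without overlap. Equal library totals gave 98 and 60 in CD24negTomato+ cells and 1 member lower in CD24+Tomato+ cells. A pseudocount of 10 gave 314 and 101 (members 1 higher) in CD24negTomato+ cells, and one of 0.1 gave 19 lower there, with 731 higher and 1 member lower in CD24+Tomato+ cells. No filter gave 28 lower in CD24negTomato+ cells and 1 member lower in CD24+Tomato+ cells, as did a mean of at least 50 and a required log2 fold change of 1 for that member count. eBayes without trend gave 95 lower in CD24negTomato+ and 429 lower in CD24+Tomato+ cells, with 0 members lower there. In that CD24+Tomato+ fit 6 of 38 members and 3667 of 13874 genes had an unadjusted p under 0.05 in limma. Leaving out 1 library at a time, calls in CD24negTomato+ cells ran from 8 to 535 higher and 1 to 381 lower (members 0 to 6 and 0 to 0), and in CD24+Tomato+ cells from 107 to 1564 higher and 30 to 829 lower (members 0 to 3 and 0 to 2).

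Single members not past the threshold changed sign. In CD24negTomato+ cells equal library totals, with or without the block, gave log2 fold changes of -0.18 for Ifi35, -0.17 for Ifit3, -0.04 for Irf1, -0.20 for Irf9 and -0.13 for Lgals3bp, and quantile normalization, with or without the block, gave -0.03 for Ifi35, -0.09 for Ifit3 and -0.04 for Irf9. Quantile normalization in CD24+Tomato+ cells gave -0.07 for Eif2ak2, -0.89 for Gbp3 and -0.89 for Ifi44, and a pseudocount of 10 gave -0.03 for Gbp3 and 0.05 for Ifit2. Replicates 2 and 3 alone gave 0.11 for Epsti1 and -0.07 for Ifi35 in CD24negTomato+ cells and 0.08 for Dhx58 and 0.41 for Rsad2 in CD24+Tomato+ cells. Leaving out 1 library reversed 15 member values in CD24negTomato+ cells, with ranges of -0.18 to 0.19 for Irf9, -0.99 to 1.09 for Ifit3, -0.57 to 0.03 for Psmb8, -0.55 to 0.11 for Tap1, -0.13 to 0.13 for Ifi35, -0.12 to 0.22 for Lgals3bp and -0.28 to 0.19 for Epsti1. It reversed 27 in CD24+Tomato+ cells, of which 7 came without Tomatoneg replicate 1, with ranges of -0.89 to 0.90 for Ifih1, -0.41 to 0.39 for Dhx58, -0.80 to 0.56 for Eif2ak2, -0.17 to 0.65 for Oas1a, -1.36 to 0.04 for Oasl2, -1.04 to 0.27 for Irf7, -0.73 to 0.75 for Ifit2, -1.22 to 0.98 for Rsad2, -1.22 to 0.03 for Cmpk2, -0.04 to 0.58 for Bst2, -1.05 to 0.13 for Rtp4, -0.79 to 0.61 for Gbp3, -0.31 to 0.65 for Ifi44, -0.43 to 0.06 for Tmem140 and -0.15 to 0.22 for Lgals3bp.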
